A study of Homo sapiens with 32 samples.

Results

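The response to OTS964 was compared between 2 human breast cancer cell lines, Cal51 and MDA-MB-231, both in cells labelled wild-type. A response is the log2 fold change of a gene with OTS964 against DMSO, and the quantity described is the response of Cal51 minus that of MDA-MB-231. A positive difference means that the gene stood higher after treatment, relative to its own DMSO level, in Cal51 than in MDA-MB-231. The members are the 8 libraries whose titles name these lines, the wild-type genotype and either treatment, of 32 libraries in the series.

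The 4 groups were wild-type Cal51 with the solvent DMSO (0 nM), wild-type Cal51 with OTS964 at 100 nM, wild-type MDA-MB-231 with DMSO and wild-type MDA-MB-231 with OTS964 at 100 nM, each after 6 h and with 2 libraries. The same lines labelled G579S, which the series' design text calls resistant to inhibition of CDK11, gave the matching difference in 8 other libraries. All cells were grown in DMEM with serum. The labels do not say whether the G579S cells of a line are 1 clone, nor whether replicate libraries were grown as separate cultures. The p-values therefore cover only the spread between replicate libraries, and that spread may be technical. It was estimated once per gene, from all 32 libraries of the series.

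As background, CDK11 is a cyclin-dependent kinase encoded by the near-identical genes CDK11A and CDK11B. It works with the cyclins L, encoded by CCNL1 and CCNL2, and is known for its part in pre-mRNA splicing and in the transcription of replication-dependent histone genes. OTS964 is a small molecule that inhibits it. Both lines are widely used models of triple-negative breast cancer with a mesenchymal-like state.

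The 8 libraries held between 16790131 and 28789944 estimated reads, of which 14854381 to 25458395 were assigned to named genes. The line labels were read against markers. Under DMSO 15 of 24 luminal and epithelial markers and 15 of 26 basal and mesenchymal markers stood at 5 CPM (read counts scaled to library size) or more in Cal51, and 15 and 16 did in MDA-MB-231. KRT8, a keratin, had mean levels of 1232 and 961 CPM in Cal51 and MDA-MB-231, and VIM, which encodes vimentin, had 698 and 3656. The estrogen and progesterone receptor genes ESR1 and PGR were too low to be tested. Of 8 blood and endothelial markers tested, 0 reached that level in Cal51 under DMSO and 2 in MDA-MB-231. By the test of the difference described below, 0 of the 8 blood and endothelial markers, 1 of 9 colorectal and 2 of 8 melanocyte markers had a called difference; over the 8 omissions of a library, the melanocyte count was 0 to 2 and the colorectal lower count 0 to 1. Without MDA-MB-231 OTS964 library 1 and 2 the blood count was 0 and 0, the colorectal 1 and 1 and the melanocyte 0 and 1.

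The 2 libraries of MDA-MB-231 with OTS964 stood apart from each other. Their mean chi-square per gene was 90.3, where sampling noise alone would give 1, against 7.0 to 8.25 in the other groups. The p-values use 1 estimate of the spread per gene for all groups, so they make no allowance for a wider spread in this group. In genes that fell at least 2-fold in MDA-MB-231 the median log2 response was -1.87 in library 1 and -1.56 in library 2, and in genes that rose it was 1.36 and 0.97. The Cal51 libraries gave -1.76 and -1.82, and 1.29 in both. Counts over all genes and over gene lists are therefore also given without each MDA-MB-231 OTS964 library. The share of reads on predicted transcripts was 8.97% to 9.46% with OTS964 and 11.68% to 12.47% with DMSO; its part in the results was not tested.

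The responses of both lines were broad, and they shared most of their direction. Of 14318 genes tested, 7554 changed in Cal51 (52.8%), 3572 upward (24.9%) and 3982 downward (27.8%). In MDA-MB-231 6656 changed (46.5%), 3449 upward (24.1%) and 3207 downward (22.4%), by edgeR's quasi-likelihood test with Benjamini-Hochberg adjustment and a threshold of 0.05. In bulk samples fewer cells in a state and less RNA per cell cannot be told apart. Of 5198 genes that passed in both lines, 4854 (93.4%) went the same way. Across the 9058 genes at 5 CPM or more in at least 1 group of each line, Pearson's r between the responses was 0.64 and Spearman's rho 0.76, over genes, which are not independent replicates and share libraries and scaling. The median absolute log2 response over these genes was 0.99 in Cal51 and 0.76 in MDA-MB-231.

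The response itself differed between the lines in 2973 genes (20.8% of those tested). It was higher in Cal51 in 1179 (8.23%) and lower in 1794 (12.5%), and among the genes at 5 CPM or more in each line 2662 of 9058 were called (29.4%). Gene lists below that hold mostly such genes are better read against this 29.4% than against 20.8%. The split depends on scaling: 39.7% of called genes were higher here, 50.0% with median-ratio size factors, 24.2% with library totals, 50.3% with DESeq2 and 59.3% in a fit of the 8 libraries alone. Without MDA-MB-231 OTS964 library 2 the count of higher genes was 1974, which is 49.6% of the genes then called, and without library 1 it was 1068 against 1855 lower. Library totals moved the median difference of all genes from -0.03 to -0.21, and the fit of 8 libraries moved it to 0.12. That fit, which takes the spread from the 8 libraries alone, called 1849 genes, 752 of them lower.

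The called genes fall into 4 classes by direction and by the line with the larger absolute response. In 653 genes (4.56%) the difference was carried by a rise in Cal51, and in 526 (3.67%) by a fall in MDA-MB-231. In 1473 (10.3%) it was carried by a fall in Cal51, and in 321 (2.24%) by a rise in MDA-MB-231. Of the called genes 1024 had passed in both lines in the same direction, 868 of them with the larger response in Cal51. Another 1050 passed in Cal51 alone, 524 in MDA-MB-231 alone and 31 in neither. The remaining 344 (2.4% of the genes tested) passed in both lines in opposite directions, 173 rising and 171 falling in Cal51. That last count was 290 and 520 without MDA-MB-231 OTS964 library 1 and 2, and 202 with library totals.

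**Figure D1:**
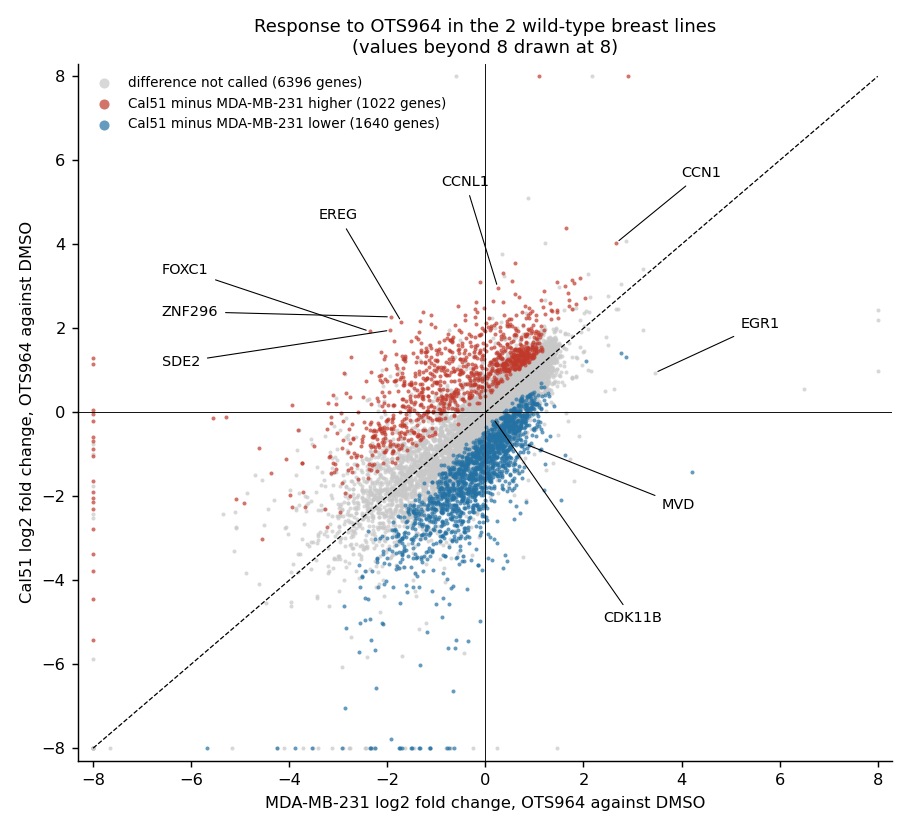
Log2 fold change with OTS964 against DMSO in MDA-MB-231 (horizontal) and Cal51 (vertical) for the 9058 genes at 5 CPM or more in each line; colours mark the genes whose difference of responses passed the test, and values beyond 8 are drawn at 8. Most points lie along the diagonal of equal response, and FOXC1, ZNF296, SDE2 and EREG lie in the upper left, where Cal51 rose and MDA-MB-231 fell.

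The genes of the drug's target and its cyclins were read first. CDK11A had 16.8 and 16.8 CPM in the 2 Cal51 DMSO libraries and 12.9 and 11.9 with OTS964, and in MDA-MB-231 32.3 and 33.8 against 29.8 and 25.3. CDK11B had 46.3 and 48.2 CPM against 37.4 and 48.5 in Cal51, and 61.8 and 56.4 against 60.1 and 71.3 in MDA-MB-231. Neither difference of responses passed the test: it was -0.17 ± 0.21 (SE, adjusted p = 0.7) on the log2 scale for CDK11A and -0.29 ± 0.23 (adjusted p = 0.46) for CDK11B. The 2 genes share nearly all of their sequence, so reads may have been split between them.

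CCNL1, which encodes cyclin L1, had 15.5 and 10.5 CPM in Cal51 under DMSO and 100 and 103 with OTS964, a 7.81-fold rise. In MDA-MB-231 it had 7.37 and 10.7 CPM under DMSO and 12.7 and 8.79 with OTS964, so that treated and untreated libraries overlapped. The log2 difference of responses was 2.71 ± 0.51 (adjusted p = 0.00071). CCNL2, the other cyclin L gene, had 13.9 and 19.7 CPM against 18.7 and 19.5 in Cal51, and 18.2 and 20.4 against 10.6 and 7.22 in MDA-MB-231, where it fell. Its difference of 1.30 ± 0.38 passed (adjusted p = 0.017), but not without Cal51 DMSO library 1 (adjusted p = 0.094), MDA-MB-231 DMSO library 2 (0.059) or MDA-MB-231 OTS964 library 2 (0.062).

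Of 20 genes for CDK11, its partners and further kinases of transcription, 5 had a higher and 2 a lower response in Cal51, against 8.23% and 12.5% of all genes. The counts were 4 to 8 higher and 1 to 4 lower over the 8 omissions, with 7 higher and 4 lower without MDA-MB-231 OTS964 library 1, and 8 and 1 without library 2. CCNT1, the cyclin T1 of the elongation factor P-TEFb, had 56.9 and 58.1 CPM against 71.6 and 59.3 in Cal51. In MDA-MB-231 it fell from 51.7 and 50.1 CPM to 7.42 and 12.8, and the log2 difference was 2.53 ± 0.29 (adjusted p = 3e-06). CDK13, a kinase of the elongating polymerase, fell in both lines and more in MDA-MB-231 (difference 1.27 ± 0.20). CCNK, the cyclin K that partners CDK12 and CDK13, went the other way: it fell from 76.3 and 77.8 to 25.4 and 18.6 CPM in Cal51 and from 103 and 109 to 80.9 and 76.8 CPM in MDA-MB-231 (difference -1.38 ± 0.16, adjusted p = 3.1e-06). Cyclin T1 and cyclin K, which serve kinases of the same polymerase tail, differed between the lines in opposite directions.

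Genes that rose in one line and fell in the other show the difference most plainly. FOXC1, a forkhead transcription factor of mesenchymal and basal-like cells, had 111 and 95.8 CPM in Cal51 under DMSO and 388 and 398 with OTS964. In MDA-MB-231 it had 24.0 and 23.1 CPM under DMSO and 3.45 and 5.78 with OTS964. Its log2 responses of 1.93 and -2.36 differed by 4.29 ± 0.24 (adjusted p = 1.1e-09). No treated library overlapped with the DMSO libraries of its line, and the directions were opposite.

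SDE2, which takes part in splicing and in the replication stress response, rose from 44.9 and 47.6 to 184 and 175 CPM in Cal51 and fell from 65.4 and 58.6 to 15.2 and 17.2 in MDA-MB-231 (difference 3.89 ± 0.64, adjusted p = 0.00018). PWWP2A, a chromatin protein that binds nucleosomes with the histone variant H2A.Z, rose from 43.2 and 40.2 to 81.3 and 77.8 CPM in Cal51 and fell from 21.8 and 24.4 to 2.90 and 3.33 in MDA-MB-231 (difference 3.82 ± 0.36). The zinc finger gene ZNF296 rose from 6.26 and 6.04 to 27.0 and 32.5 CPM in Cal51 and fell from 9.26 and 9.21 to 2.64 and 2.20 in MDA-MB-231 (difference 4.20 ± 0.45). Before treatment SDE2 and ZNF296 were lower in Cal51 than in MDA-MB-231, and after it they were higher. ZNF136, another zinc finger gene, followed the same pattern at low level, with a difference of 4.06 ± 0.68 (adjusted p = 0.0002).

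EREG encodes epiregulin, a ligand of the EGF receptor. It rose from 2.33 and 3.69 to 13.0 and 13.7 CPM in Cal51 and fell from 39.1 and 35.8 to 7.87 and 15.1 in MDA-MB-231, a difference of 3.86 ± 0.72 (adjusted p = 0.00062). The treated libraries of the 2 lines ended at overlapping levels although both untreated MDA-MB-231 libraries lay far above those of Cal51. MFHAS1, a leucine-rich repeat GTPase, rose from 48.5 and 57.5 to 269 and 289 CPM in Cal51 and fell from 12.4 and 11.9 to 6.66 and 3.27 in MDA-MB-231 (difference 3.68 ± 0.47).

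**Figure D2:**
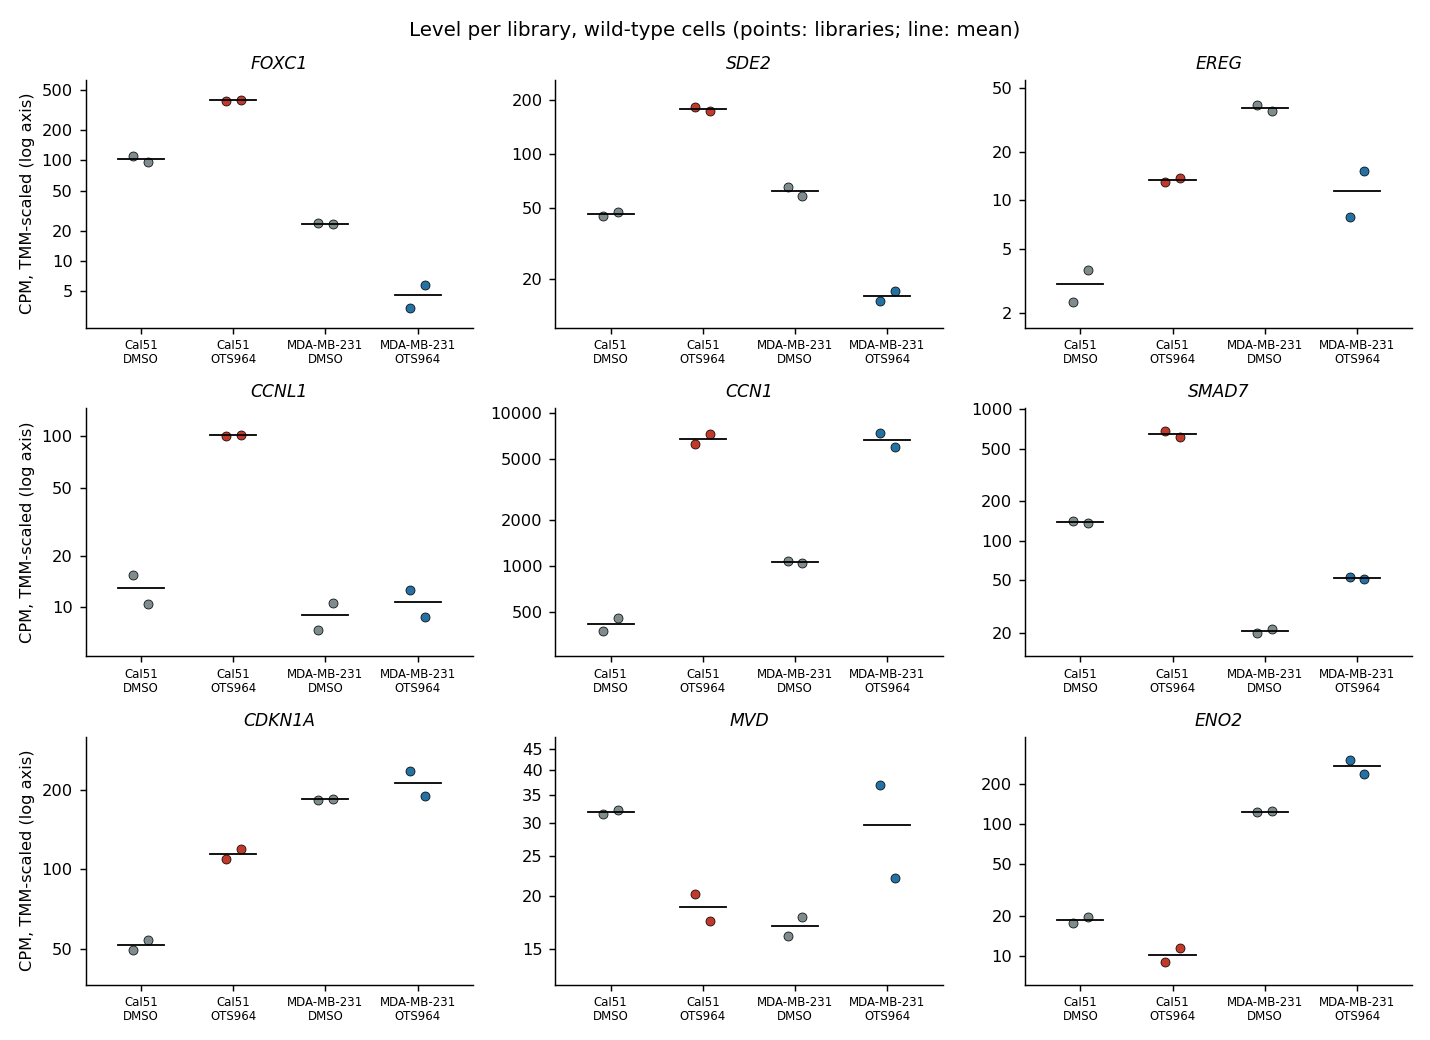
TMM-scaled CPM on log axes for 9 genes in the 4 wild-type groups; points are libraries and lines are means of 2. FOXC1, SDE2 and EREG rose in Cal51 and fell in MDA-MB-231, ENO2 and MVD did the reverse, and CCNL1 rose in Cal51 alone.

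The largest falls ended with a gene listed at 0 in both treated libraries of a line. Of 8792 genes at 5 CPM or more under DMSO in both lines, 45 were at 0 with OTS964 in Cal51 only, 23 in MDA-MB-231 only and 8 in both. The difference was called in 20 of the 45 and in 17 of the 23. A gene at 0 has 0 reads on matched transcripts, which allows up to 3 counts, or 0.285 CPM in the Cal51 and 0.17 CPM in the MDA-MB-231 OTS964 group, and reads on unmatched transcripts were not used. These floors cover counting error only, and fold changes below are lower bounds for that error alone. Zeros were not always shared by replicates. In the OTS964 groups, 92 genes in Cal51 and 150 in MDA-MB-231 had a 0 in only 1 replicate, while its partner reached 5 CPM. The DMSO groups of Cal51 and MDA-MB-231 had 35 and 37 such genes. The source of such zeros was not tested, and the printed bounds make no allowance for them.

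In MDA-MB-231, UVRAG, which acts in autophagy and endosome traffic, went from 26.4 and 22.9 CPM to 0 in both libraries, at least 144.7-fold lower. In Cal51 it had 11.7 and 12.4 CPM under DMSO and 5.56 and 6.05 with OTS964 (difference adjusted p = 3.5e-06). ESCO1, an acetyltransferase of cohesin, went from 23.5 and 19.2 CPM to 0 in MDA-MB-231, at least 125.3-fold lower, and from 19.1 and 23.3 to 3.77 and 6.44 in Cal51 (adjusted p = 1.5e-06). RNF144B, a ubiquitin ligase, and DENND4C, a regulator of Rab GTPases, were likewise at 0 in treated MDA-MB-231, at least 38.25-fold and 68.81-fold lower, and were at 57.7 and 69.5 CPM and at 8.39 and 13.2 CPM in treated Cal51 (adjusted p = 0.008 and 0.0059). ZC3H12A and TSC22D2 also fell to 0 in MDA-MB-231, but the call of their difference was lost in 8 and 7 of 8 omissions of a library (adjusted p up to 0.13 and 0.11, from 0.048 and 0.036 with all libraries).

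In Cal51 the genes that fell to 0 included PTAR1, a subunit of a prenyltransferase that modifies a SNARE, and ASB1, an adaptor of a ubiquitin ligase. PTAR1 went from 49.7 and 21.7 CPM to 0, at least 125.0-fold lower, while in MDA-MB-231 it had 6.77 and 16.1 CPM under DMSO and 5.49 and 8.23 with OTS964 (adjusted p = 0.00086). ASB1 went from 32.8 and 33.4 CPM to 0, at least 115.9-fold lower, and from 37.9 and 42.8 to 8.69 and 15.6 in MDA-MB-231 (adjusted p = 0.00037). DCAF16, another ubiquitin ligase receptor, was at least 75.08-fold lower in Cal51 (adjusted p = 0.0027). TSC1, a brake on mTOR signalling, was at least 81.43-fold lower in Cal51. In treated MDA-MB-231 it had 16.8 CPM in library 1 and 2.51 in library 2, and without library 1 the difference lost its call (adjusted p from 0.0081 to 0.052), as it did in the fit of the 8 libraries (0.057). SNX27 and KBTBD4 followed the pattern, but their calls were lost in 7 and 5 of 8 omissions (adjusted p up to 0.1 and 0.09).

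In the reverse direction, some genes listed at 0 in untreated Cal51 had reads with treatment. FOSB, a subunit of the AP-1 transcription factor, was at 0 in both Cal51 DMSO libraries and at 36.8 and 41.4 CPM with OTS964, at least 248.0-fold higher. In MDA-MB-231 it had 0.85 and 1.78 CPM under DMSO and 11.9 and 7.91 with OTS964 (difference adjusted p = 0.00067). PTPRG, a receptor tyrosine phosphatase, was at 0 in untreated Cal51 and at 27.4 and 28.5 CPM with OTS964, at least 177.1-fold higher. It was already at 28.0 and 21.3 CPM in untreated MDA-MB-231, and the difference (adjusted p = 0.018) was lost without Cal51 DMSO library 1 or 2 (adjusted p = 0.073 and 0.071).

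Genes with the larger rise in MDA-MB-231 formed the smallest class. ENO2, the neuronal enolase of glycolysis, fell from 17.9 and 19.7 to 9.05 and 11.4 CPM in Cal51 and rose from 123 and 125 to 308 and 239 in MDA-MB-231 (difference -2.02 ± 0.19, adjusted p = 3.8e-07). NDRG1, a stress and hypoxia gene, fell from 43.8 and 41.0 to 26.6 and 27.4 CPM in Cal51 and rose from 91.6 and 102 to 267 and 186 in MDA-MB-231 (difference -1.88 ± 0.26). RAB11FIP3, an effector in endosome recycling, fell in Cal51 and rose in MDA-MB-231 (difference -2.64 ± 0.51, adjusted p = 0.00078). MUTYH, a base excision repair glycosylase, did the same (-2.01 ± 0.45, adjusted p = 0.0029, and 0.056 in the fit of 8 libraries). TRPT1, a tRNA phosphotransferase, rose in MDA-MB-231 (difference -1.88 ± 0.38, adjusted p = 0.0014, and 0.06 in the fit of 8 libraries). ARHGAP32, a GTPase-activating protein, had a larger value (-5.63 ± 1.73) but lay at 0 in 1 library of each of 2 groups, and its call was lost in 4 of 8 omissions (adjusted p up to 0.11).

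The called genes differed in exon number, a property the comparison did not use and which was chosen for description after values had been seen. The exon number is the most exons of any protein-coding transcript of the gene in the basic set of GENCODE 29, and it was available for 9039 of the 9058 genes at 5 CPM or more in each line (99.8%). Genes with a single exon need no splicing. Of 134 such genes, 75 had a higher response in Cal51 (56.0%) and 3 a lower one (2.2%). The share with a higher response was 39.6% with 2 exons, 22.1% with 3 to 4, 11.8% with 5 to 8, 7.6% with 9 to 16 and 4.2% with 17 or more. The shares with a lower response in the same order were 7.5%, 10.2%, 18.0%, 23.3% and 16.8%.

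The Cal51 response followed the order of exon number. Its median log2 response was 1.27 for single-exon genes, 0.63, 0.56, 0.12 and -0.34 for the next 4 classes, and -0.48 for genes of 17 or more exons. In MDA-MB-231 the medians were 0.44, -0.18, 0.23, 0.18, 0.01 and -0.10. Single-exon genes made up 10.4% of the genes led by a rise in Cal51 and 0.1% of those led by a fall in Cal51, against 1.5% of all 9039 genes. The median exon number was 5 in the first class, 11 in the second and 10 over all. For single-exon genes the median difference was 0.85, and it was 0.65 with library totals, 1.03 in the fit of 8 libraries, and 0.91 and 0.89 without MDA-MB-231 OTS964 library 1 or 2. The genes differ in length, level and function as well, and the part of these was not tested.

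Examples of single-exon genes, taken after their values were seen, include EXOSC6, a subunit of the RNA exosome, which went from 51.0 and 53.9 to 345 and 304 CPM in Cal51 and from 35.9 and 36.5 to 45.0 and 48.1 in MDA-MB-231 (difference 2.27 ± 0.18, adjusted p = 6.2e-08). TBCC, a tubulin folding cofactor, went from 28.1 and 29.8 to 120 and 122 CPM in Cal51 and from 47.7 and 44.2 to 53.8 and 45.4 in MDA-MB-231 (1.95 ± 0.21). SOX4, a developmental transcription factor, rose from 163 and 158 to 338 and 339 CPM in Cal51 and fell from 17.6 and 19.4 to 7.72 and 8.98 in MDA-MB-231 (2.22 ± 0.17). FOXC1 is a single-exon gene too. HSPA1B, IRF2BPL and OTUD1 were the 3 single-exon genes with a lower response in Cal51.

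**Figure D3:**
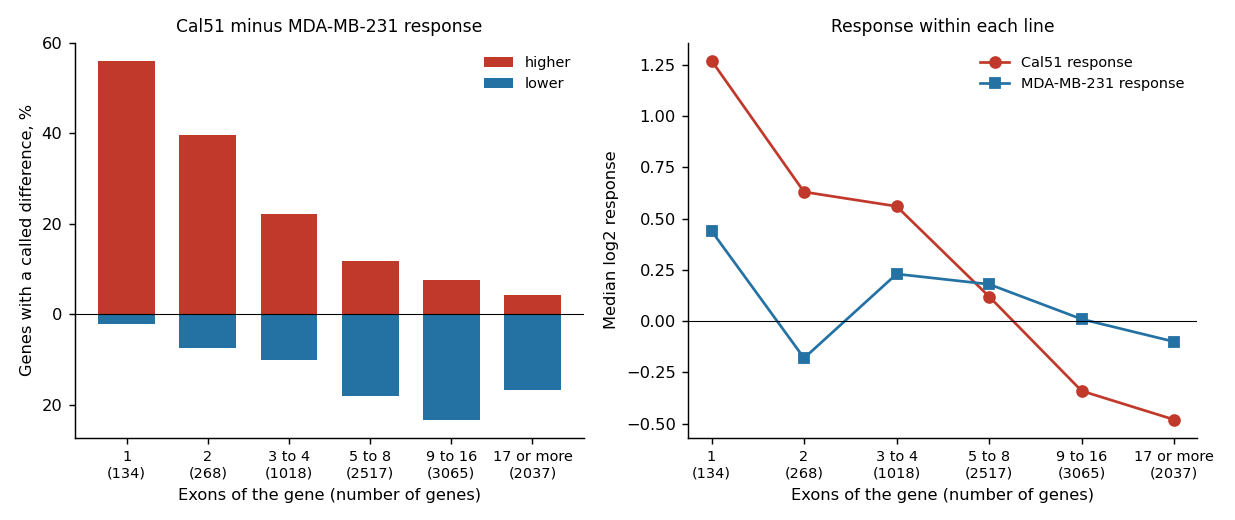
Left, share of genes with a called difference of responses, higher above and lower below 0, by the exon number of the gene; right, median log2 response of the same genes within each line. The higher share is 56.0% of 134 single-exon genes and 4.2% of 2037 genes with 17 or more exons, and the Cal51 medians span 1.27 to -0.48.

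SR proteins guide the choice of splice sites. Of 29 SR proteins and splicing kinases tested, 5 had a higher and 3 a lower response in Cal51 (27.6% called, near the 20.8% of all genes and the 29.4% of those at 5 CPM or more in each line). The lower count was 1 to 5 over the 8 omissions (1 without Cal51 DMSO library 2 or MDA-MB-231 DMSO library 1). Without MDA-MB-231 OTS964 library 1 the counts were 5 and 5, and without library 2 they were 6 and 2. DYRK2, a protein kinase, rose from 66.9 and 65.9 to 208 and 197 CPM in Cal51 and fell from 23.5 and 24.5 to 10.7 and 11.3 in MDA-MB-231 (difference 2.73 ± 0.22, adjusted p = 6.2e-08). SRSF2 rose from 404 and 382 to 994 and 975 CPM in Cal51, while in MDA-MB-231 it had 323 and 304 CPM under DMSO and 191 and 346 with OTS964 (1.55 ± 0.24). Its treated MDA-MB-231 libraries lay below and above the untreated ones. SRSF8, a single-exon relative of SRSF2, differed by 1.66 ± 0.29. PNN, a protein associated with exon junctions, fell in both lines and more in MDA-MB-231 (1.44 ± 0.24).

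In the spliceosome core 29 of 44 genes rose and 7 fell in Cal51, and 30 rose and 4 fell in MDA-MB-231. The difference was called lower in 9 and higher in 2. The share was 25.0%, against 20.8% of all genes and 29.4% of those at 5 CPM or more in each line. The median difference of 0.14 turned to -0.06 with library totals. The direction of the counts depended on the processing: the fit of the 8 libraries gave 2 lower and 8 higher, and DESeq2 8 lower and 11 higher. With median-ratio size factors the counts were 7 lower and 7 higher, and without MDA-MB-231 OTS964 library 1 and 2 they were 10 and 3, and 10 and 6. PLRG1 and SNRNP40, parts of the catalytic and the U5 complexes, had lower responses in Cal51 (-1.07 ± 0.15 and -1.07 ± 0.18). SF3A1, a U2 subunit, had 185 and 184 against 167 and 175 CPM in Cal51 and rose from 207 and 225 to 362 and 286 in MDA-MB-231 (-0.70 ± 0.13, adjusted p = 0.00078, and 0.11 in the fit of 8 libraries). PRPF38A fell in both lines, more in MDA-MB-231 (0.69 ± 0.14).

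YAP with TEAD, and SRF, are regulators of transcription that answer to cell shape and growth signals. Of 25 of their targets 7 had a higher and 0 a lower response in Cal51. The share called was 28.0%, against 20.8% of all genes and 29.4% of those at 5 CPM or more in each line. The median difference was 0.59, against -0.03 over all genes tested. The counts were 7 and 1 without MDA-MB-231 OTS964 library 1, 10 and 1 without library 2, 5 and 1 with library totals, 4 and 0 without Cal51 DMSO library 1, and 14 and 0 by DESeq2. CCN1, a matricellular protein and the classical YAP target, rose 16.4-fold in Cal51, from 374 and 459 to 6304 and 7331 CPM, and 6.35-fold in MDA-MB-231, from 1076 and 1044 to 7432 and 6024 CPM. The treated levels of the lines overlapped and the untreated ones did not, and the difference of responses was 1.37 ± 0.26 (adjusted p = 0.00072).

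CCN2, its close relative, rose from 220 and 268 to 1283 and 1455 CPM in Cal51 and from 264 and 257 to 510 and 453 in MDA-MB-231 (difference 1.60 ± 0.15, adjusted p = 3.1e-07). Here the untreated levels overlapped and the treated levels did not. ACTB, the cytoplasmic actin gene and an SRF target, rose in both lines, more in Cal51 (0.61 ± 0.15). THBS1, the matrix protein thrombospondin, fell in MDA-MB-231 and had 755 and 950 against 975 and 1109 CPM in Cal51 (0.92 ± 0.21).

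Of 21 TGF-beta targets and inhibitors 5 had a higher and 0 a lower response in Cal51 (median difference 0.47; 23.8% called, near the 20.8% of all genes), the same counts without either MDA-MB-231 OTS964 library. The 5 members that passed are inhibitors or repressors of the pathway, a kind of gene the list was drawn up to hold. SKI and PMEPA1 of the same list did not pass. SMAD7, an inhibitory SMAD, rose from 140 and 137 to 680 and 610 CPM in Cal51 and from 19.8 and 21.3 to 53.1 and 51.1 in MDA-MB-231 (0.88 ± 0.14, adjusted p = 0.00017). TGIF1, a corepressor, rose in both lines and more in Cal51 (0.99 ± 0.16). SKIL, a SMAD antagonist, rose from 67.2 and 65.0 to 126 and 126 CPM in Cal51 and fell from 27.4 and 27.3 to 7.21 and 13.1 in MDA-MB-231 (2.36 ± 0.48, adjusted p = 0.0013). SMAD6, the other inhibitory SMAD, rose from 68.1 and 78.7 to 118 and 112 CPM in Cal51, and in MDA-MB-231 it was at 0.60 and 0.96 CPM under DMSO and at 0 with OTS964, at least 4.57-fold lower (adjusted p = 1.5e-06). SMAD6 did not reach 5 CPM in MDA-MB-231, and it and SMAD3 were named outside the naming rule, after values were seen. BAMBI, a decoy receptor, differed by 0.67 ± 0.21, and its call was lost in 5 of 8 omissions (adjusted p up to 0.18). SMAD3, a signal carrier of the pathway, fell in both lines: its responses were -2.40 and -2.34, and the difference was -0.06 ± 0.15.

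The ATF4 and unfolded protein response list holds genes of amino acid shortage and of stress in the endoplasmic reticulum. Of 28 members, 11 had a higher and 2 a lower response in Cal51 (46.4% called against 20.8% of all genes), with a median difference of 0.58. The counts were 9 and 3 without MDA-MB-231 OTS964 library 1, 10 and 2 without library 2, and 8 and 2 with library totals. ATF4, the regulator that names the list, rose from 282 and 300 to 377 and 387 CPM in Cal51 and fell from 255 and 251 to 164 and 128 in MDA-MB-231 (1.18 ± 0.16, adjusted p = 2.2e-05). HSPA5, the chaperone BiP, rose from 1267 and 1257 to 3894 and 3928 CPM in Cal51 and from 735 and 710 to 1158 and 1203 in MDA-MB-231 (0.92 ± 0.14). DNAJB9, its co-chaperone, had 16.7 and 18.9 against 18.6 and 21.0 CPM in Cal51 and fell from 19.1 and 15.5 to 3.96 and 6.72 in MDA-MB-231 (1.84 ± 0.31). XBP1, a transcription factor of the unfolded protein response, differed by 1.51 ± 0.35. DDIT4, an inhibitor of mTOR, went against the list, with a fall in Cal51 and a rise in MDA-MB-231 (-1.54 ± 0.29).

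Cholesterol synthesis genes differed in the other direction. Sterol shortage switches these genes on through the factor SREBP2, which works with the CCAAT-binding factor NF-Y. Of 25 members 9 had a lower and 0 a higher response in Cal51 (36.0% called against 20.8% of all genes). The median difference was -0.51, from median responses of -0.26 in Cal51 and 0.66 in MDA-MB-231. The counts were 9 and 0 without either MDA-MB-231 OTS964 library, 6 and 0 with median-ratio size factors, 11 and 0 with library totals, 8 and 1 by DESeq2, and 2 and 0 in the fit of 8 libraries.

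MVD, the decarboxylase of the mevalonate pathway, had 31.4 and 32.2 CPM in Cal51 under DMSO and 20.3 and 17.5 with OTS964, and in MDA-MB-231 16.0 and 17.9 CPM against 36.9 and 22.2. It fell in Cal51 and rose in MDA-MB-231, and the lines exchanged their order (difference -1.55 ± 0.29, adjusted p = 0.00069, and 0.051 in the fit of 8 libraries). SQLE, squalene epoxidase, fell from 55.8 and 50.0 to 13.5 and 16.9 CPM in Cal51 and from 19.0 and 19.1 to 13.8 and 16.5 in MDA-MB-231 (-1.46 ± 0.19, adjusted p = 1.2e-05). IDI1, an isomerase of the pathway, fell in Cal51 from 35.8 and 37.8 to 16.6 and 11.9 CPM and had 46.2 and 41.0 against 33.5 and 49.4 CPM in MDA-MB-231 (-1.30 ± 0.32, adjusted p = 0.0064, and 0.082 in the fit of 8 libraries). A further 5 called were HSD17B7, CYP51A1, LSS, DHCR7 and FDFT1, with differences from -1.83 to -0.51, and these were named after values were seen.

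The promoters of MVD and HSD17B7, a sterol ketoreductase, are printed as examples picked for holding boxes of the NF-Y type. Both genes belong to the list with a called difference. DHCR7, which has a called difference and 2 boxes, is not printed. Each window runs from 250 bases before to 50 after a start of the gene, from RefSeq (GRCh38.p14), 5′ to 3′ on the gene's strand, and capitals mark CCAAT or its reverse complement ATTGG. MVD lies at chr16:88663042-88663341 on the minus strand with 3 boxes, and HSD17B7 at chr1:162790452-162790751 on the plus strand with 2.
MVD: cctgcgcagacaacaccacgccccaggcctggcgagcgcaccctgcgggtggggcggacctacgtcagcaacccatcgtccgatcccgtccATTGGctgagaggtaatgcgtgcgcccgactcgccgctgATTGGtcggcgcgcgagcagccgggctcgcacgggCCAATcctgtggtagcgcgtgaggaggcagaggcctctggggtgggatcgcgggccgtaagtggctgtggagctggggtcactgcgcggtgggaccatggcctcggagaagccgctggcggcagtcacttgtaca
HSD17B7: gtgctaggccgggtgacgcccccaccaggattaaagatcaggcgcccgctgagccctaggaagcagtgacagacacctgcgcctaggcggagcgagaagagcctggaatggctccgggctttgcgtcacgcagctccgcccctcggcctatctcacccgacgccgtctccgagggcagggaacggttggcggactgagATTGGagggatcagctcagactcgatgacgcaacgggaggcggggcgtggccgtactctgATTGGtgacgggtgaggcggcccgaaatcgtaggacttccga
Of the 25 members, 18 had a window in the table, and 16 of these held CCAAT on either strand (88.9%), against 43.0% of 11586 tested genes with a window. The sterol element TCACNCCAC was found in 1 of the 18 (5.6%) and in 1.5% of the 11586. Among called members with a window 5 of 6 held CCAAT and 0 of 6 the sterol element, where any window of a gene could match. The first listed windows of IDI1 and CYP51A1 held neither. A match describes letters, not a binding site.

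Among genes of cell division most called differences were lower in Cal51. Of 51 DNA replication and E2F genes, 18 were lower and 3 higher (41.2% called against 20.8% of all genes). Median responses were -0.67 in Cal51 and 0.09 in MDA-MB-231. In the fit of the 8 libraries 9 were lower and 2 higher. The counts were 18 and 3 without MDA-MB-231 OTS964 library 1 and 22 and 5 without library 2. RFC4 and RFC3, subunits of the clamp loader, are examples. RFC4 fell from 71.3 and 67.3 to 4.99 and 6.25 CPM in Cal51 and from 55.0 and 53.5 to 34.3 and 40.2 in MDA-MB-231 (-3.08 ± 0.28, adjusted p = 2.2e-07). RFC3 fell from 82.0 and 85.5 to 17.8 and 15.9 CPM in Cal51 and had 64.2 and 66.8 against 45.7 and 72.5 CPM in MDA-MB-231 (-2.17 ± 0.22). PRIM1, the catalytic primase, fell in Cal51 and had 28.4 and 28.1 against 23.7 and 30.8 CPM in MDA-MB-231 (-2.23 ± 0.24). ORC2 of the origin recognition complex fell in both, more in Cal51 (-1.50 ± 0.20).

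Of 44 mitosis genes 33 fell and 0 rose in Cal51, and 26 fell and 2 rose in MDA-MB-231. All 44 reached 5 CPM in each line, and 29.4% of such genes had a called difference. The difference was lower in 11 and higher in 1 (27.3% called against 20.8% of all genes, median -0.37), and the counts were 16 and 1, and 10 and 3, without MDA-MB-231 OTS964 library 1 and 2. PRC1, which bundles microtubules of the central spindle, fell from 206 and 216 to 56.6 and 56.7 CPM in Cal51 and had 276 and 269 against 265 and 266 CPM in MDA-MB-231 (-1.86 ± 0.11, adjusted p = 3.7e-09). NDC80, of the outer kinetochore, fell from 65.3 and 63.1 to 6.97 and 5.00 CPM in Cal51 and from 98.1 and 98.3 to 47.1 and 64.6 in MDA-MB-231 (-2.61 ± 0.37). KIF2C, a microtubule depolymerase, and BUB1B, of the spindle checkpoint, fell in both lines and more in Cal51 (-2.05 ± 0.28 and -1.10 ± 0.18).

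Homologous recombination and Fanconi genes, which repair breaks and crosslinks, were lower in 11 of 35 and higher in 3 (20.8% of all genes were called). In the fit of the 8 libraries they were lower in 6 and higher in 1. Their median difference of -0.20 was -0.52 and -0.11 without MDA-MB-231 OTS964 library 1 and 2, and the counts were then 13 and 2, and 10 and 8. FANCE and FANCC, of the Fanconi core complex, fell in both lines, more in Cal51 (-1.77 ± 0.30 and -1.06 ± 0.17). UBE2T, their ubiquitin-conjugating enzyme, fell in Cal51 (-1.35 ± 0.21).

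Replication-dependent histone genes, a known output of CDK11, were higher in 4 of 32 tested and lower in 0 (12.5% called against 20.8% of all genes), and reads of such near-identical genes may be split. Only 3 of the 32 reached 5 CPM in each line. Under DMSO the 32 summed to 40.73 to 44.94 CPM in Cal51 and 62.74 to 68.69 in MDA-MB-231. The share called is therefore that of mostly low counts. How fully the library kit captures their transcripts was not tested. The higher count was 2 to 4 over the 8 omissions, with 2 without either DMSO library of either line or Cal51 OTS964 library 1, and 3 and 4 without MDA-MB-231 OTS964 library 1 and 2. H2BC12 rose from 15.9 and 14.3 to 50.5 and 54.5 CPM in Cal51 and from 32.4 and 36.0 to 66.7 and 70.0 in MDA-MB-231 (0.80 ± 0.19, adjusted p = 0.0054). H1-2 rose in both (0.72 ± 0.24), with its call lost in 6 of 8 omissions (adjusted p up to 0.17).

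Single genes of growth arrest, stress and cell death follow; they stand for no group, and no group count is given for them. CDKN1A, the p21 cell cycle inhibitor, rose from 49.5 and 54.1 to 109 and 120 CPM in Cal51. In MDA-MB-231 it had 184 and 185 CPM under DMSO and 236 and 189 with OTS964, and the difference was 0.94 ± 0.19 (adjusted p = 0.0015). PPM1D, a protein phosphatase of the DNA damage response, rose from 23.9 and 26.5 to 49.2 and 43.5 CPM in Cal51 and fell from 16.6 and 13.9 to 3.81 and 3.14 in MDA-MB-231 (3.01 ± 0.47). GADD45A rose in both lines, from 32.1 and 32.7 to 211 and 255 CPM in Cal51 and from 86.7 and 92.3 to 310 and 264 in MDA-MB-231 (1.17 ± 0.18). TRIAP1 rose in Cal51 from 38.8 and 46.3 to 86.3 and 86.1 CPM (1.00 ± 0.20).

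MDM2, a ubiquitin ligase, fell in both lines, from 108 and 103 to 61.4 and 50.0 CPM in Cal51 and from 72.6 and 69.0 to 13.1 and 25.7 in MDA-MB-231. The difference of responses in MDM2 was not called with library totals or in the fit of the 8 libraries. Its difference of 0.95 ± 0.29 (adjusted p = 0.025) was lost in 6 of 8 omissions, with adjusted p up to 0.11 without Cal51 OTS964 library 1. PMAIP1, the death gene NOXA, fell in Cal51 from 11.6 and 13.1 to 4.24 and 4.90 CPM and had 109 and 101 against 103 and 150 CPM in MDA-MB-231 (-1.70 ± 0.27).

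Of 28 apoptosis regulators 5 were higher and 5 lower (35.7% called against 20.8% of all genes), the latter 3 without MDA-MB-231 DMSO library 1. The counts were 4 and 5 without MDA-MB-231 OTS964 library 1, and 7 and 6 without library 2. MCL1, a survival protein with a short-lived mRNA, had 257 and 268 against 265 and 253 CPM in Cal51 and fell from 354 and 359 to 171 and 212 in MDA-MB-231 (0.88 ± 0.12, adjusted p = 1.7e-05). BAK1, a pore-forming death effector, fell from 63.4 and 60.1 to 4.52 and 5.86 CPM in Cal51 and from 81.8 and 80.8 to 25.5 and 23.2 in MDA-MB-231 (-1.83 ± 0.26). DIABLO, which releases caspases from their inhibitors, fell in Cal51 and rose in MDA-MB-231 (-1.29 ± 0.19).

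Immediate early genes answer growth factors and stress within minutes, and most of the 33 in the list encode transcription factors. Of these 33 genes 10 had a higher and 5 a lower response in Cal51 (45.5% called against 20.8% of all genes), with 6 to 10 and 2 to 4 over the 8 omissions (6 higher without Cal51 OTS964 library 2, 9 and 4 without either MDA-MB-231 OTS964 library), and the median difference of 0.12 turned to -0.06 with library totals. FOSL2 rose from 118 and 127 to 603 and 625 CPM in Cal51 and had 269 and 275 against 377 and 332 CPM in MDA-MB-231 (1.94 ± 0.29, adjusted p = 6.9e-05). RHOB, a single-exon gene of the list that encodes a GTPase and no transcription factor, rose in Cal51 from 131 and 124 to 222 and 226 CPM and fell in MDA-MB-231 from 28.1 and 24.0 to 22.1 and 19.3 (1.14 ± 0.14). BHLHE40, a clock and hypoxia repressor, rose in both lines, from 31.2 and 24.6 to 74.2 and 74.6 CPM in Cal51 and from 74.7 and 77.2 to 614 and 423 in MDA-MB-231 (-1.36 ± 0.22).

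MYC rose in both lines, from 85.7 and 103 to 588 and 653 CPM in Cal51 and from 115 and 110 to 526 and 397 in MDA-MB-231. The difference of responses in MYC was not called with library totals or in the fit of the 8 libraries. Its difference of 0.68 ± 0.21 (adjusted p = 0.023) was lost in 4 of 8 omissions (adjusted p up to 0.12, without Cal51 DMSO library 1). FOS had 5.22 and 3.21 against 3.58 and 3.94 CPM in Cal51 and rose from 1.79 and 2.16 to 5.44 and 7.29 in MDA-MB-231, a difference of -1.85 ± 0.62 (adjusted p = 0.038) that was lost in 6 of 8 omissions (adjusted p up to 0.17). EGR1 had 4.14 and 4.81 against 8.76 and 8.36 CPM in Cal51 and rose from 24.4 and 24.5 to 292 and 242 in MDA-MB-231. Its difference of -2.51 ± 1.06 did not pass (adjusted p = 0.11). The difference did pass by DESeq2 and in the fit of the 8 libraries (adjusted p = 0.0016 in the latter).

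Of 25 genes of ERK pathway feedback, 6 had a higher and 4 a lower response in Cal51 (20.8% of all genes were called), with a median difference of 0.71. Without Cal51 DMSO library 1 the lower count was 1, and without MDA-MB-231 OTS964 library 1 and 2 the counts were 6 and 4, and 9 and 3. HBEGF, another ligand of the EGF receptor, rose from 3.72 and 4.44 to 13.7 and 14.6 CPM in Cal51 and had 105 and 104 against 144 and 127 CPM in MDA-MB-231 (1.42 ± 0.36, adjusted p = 0.0077). DUSP5, a phosphatase of nuclear ERK, rose in both lines, more in Cal51 (0.74 ± 0.18). EPHA2, an ephrin receptor, had 188 and 198 against 220 and 209 CPM in Cal51 and fell from 398 and 404 to 251 and 192 in MDA-MB-231 (1.01 ± 0.19).

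Of 26 NF-kB targets and cytokines 1 was higher and 3 lower (15.4% called against 20.8% of all genes). The counts were 1 and 3 without MDA-MB-231 OTS964 library 1, and 3 and 5 without library 2. NFKB2, a subunit precursor, fell from 64.3 and 75.2 to 16.3 and 15.7 CPM in Cal51 and rose from 94.5 and 112 to 242 and 122 in MDA-MB-231 (-2.94 ± 0.33, adjusted p = 2.4e-06). TNFAIP2 fell in Cal51 (-1.68 ± 0.26), CSF1 rose in MDA-MB-231 (-0.68 ± 0.17, adjusted p = 0.0065, and 0.14 in the fit of 8 libraries), and BIRC3, an inhibitor of apoptosis, rose in Cal51 (2.31 ± 0.55). CXCL8, the chemokine interleukin 8, rose in both lines, from 1.14 and 2.25 to 8.20 and 9.90 CPM in Cal51 and from 20.1 and 22.1 to 67.7 and 107 in MDA-MB-231. Its difference was 0.37 ± 0.53 (adjusted p = 0.75). TNFAIP3, which encodes the NF-kB inhibitor A20, rose from 12.8 and 15.3 to 59.2 and 58.3 CPM in Cal51 and from 29.1 and 29.4 to 119 and 118 in MDA-MB-231, with a difference of 0.04 ± 0.31.

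Of 31 interferon stimulated genes 1 was higher and 6 lower (22.6% called, near the 20.8% of all genes), with 0 to 3 and 3 to 5 over the 8 omissions (3 lower without Cal51 DMSO library 2, either Cal51 OTS964 library or MDA-MB-231 DMSO library 1, and 2 higher and 5 lower without either MDA-MB-231 OTS964 library). STAT2, a signal carrier of the pathway, fell from 25.1 and 26.3 to 9.23 and 12.4 CPM in Cal51 and had 35.7 and 43.3 against 58.4 and 43.2 CPM in MDA-MB-231 (-1.61 ± 0.24). Heat shock chaperones were higher in 2 and lower in 4 of 23 (26.1% called against 20.8% of all genes), in 0 and 7 with library totals, and in 0 to 4 and 2 to 5 over the 8 omissions (1 and 4, and 4 and 5, without MDA-MB-231 OTS964 library 1 and 2). Of the 23 chaperones, 21 reached 5 CPM in each line, and 29.4% of such genes had a called difference. HSPA1B, which may share reads with its near-identical copy HSPA1A, had 6.57 and 4.12 CPM against 0 and 1.83 in Cal51 and 236 and 241 against 275 and 210 in MDA-MB-231 (-2.58 ± 0.58, adjusted p = 0.0033, and 0.14 in the fit of 8 libraries). DNAJB1, a co-chaperone, fell in both lines, more in Cal51 (-0.50 ± 0.12, adjusted p = 0.0048, and 0.16 in the fit of 8 libraries). HSPA8 fell in Cal51 from 1206 and 1369 to 591 and 611 CPM (-1.32 ± 0.40), with its call lost in 6 of 8 omissions (adjusted p up to 0.076). Hypoxia and glycolysis genes were higher in 1 and lower in 4 of 25 (20.0% called, near the 20.8% of all genes), NDRG1 among the lower, and 0 to 2 and 1 to 4 over the 8 omissions (1 and 4, and 2 and 3, without MDA-MB-231 OTS964 library 1 and 2).

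Large housekeeping groups moved together in both lines. Of 78 cytosolic ribosomal protein genes, 78 rose in Cal51 and 77 in MDA-MB-231, with median responses of 1.33 and 1.12. The difference was called in 5 (6.4% against 20.8% of all genes), all higher, in 17 in the fit of 8 libraries, in 15 by DESeq2, and in 1 to 6 over the 8 omissions (1 without Cal51 DMSO library 1, 5 and 6 without MDA-MB-231 OTS964 library 1 and 2). RPL4 rose from 1495 and 1547 to 3790 and 3850 CPM in Cal51 and from 1076 and 1030 to 1754 and 1911 in MDA-MB-231 (0.53 ± 0.10, adjusted p = 0.00091). Of 55 nuclear genes of oxidative phosphorylation 53 rose in each line, with medians of 1.15 and 1.11. Of the 55 the difference was called in 1 (1.8%), NDUFV2 of complex I (-0.84 ± 0.23), which lost its call without Cal51 OTS964 library 1 or MDA-MB-231 OTS964 library 2 (adjusted p up to 0.068), and without MDA-MB-231 OTS964 library 1 and 2 the counts were 1 higher and 1 lower, and 4 and 1. These rises are relative to TMM scaling: with library totals the median response of all genes was -0.67 in Cal51 and -0.39 in MDA-MB-231.

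Genes with a ZNF symbol, most of them C2H2 zinc finger repressors, were grouped after values had been seen. Of 470 tested, 170 fell in Cal51 and 220 in MDA-MB-231, where 27.8% and 22.4% of all genes fell, with median responses of -0.91 and -1.35. The difference was called in 20.0%, near the 20.8% of all genes, and was higher in 76 and lower in 18, where 8.23% and 12.5% of all genes were. The counts were 74 and 21 without MDA-MB-231 OTS964 library 1, 126 and 24 without library 2, and 59 and 23 with library totals. Their summed level was 6841 and 6889 CPM in untreated Cal51 and between 6955 and 7276 with OTS964. In MDA-MB-231 it was between 5793 and 5868 CPM under DMSO and between 3582 and 3602 with OTS964.

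**Figure D4:**
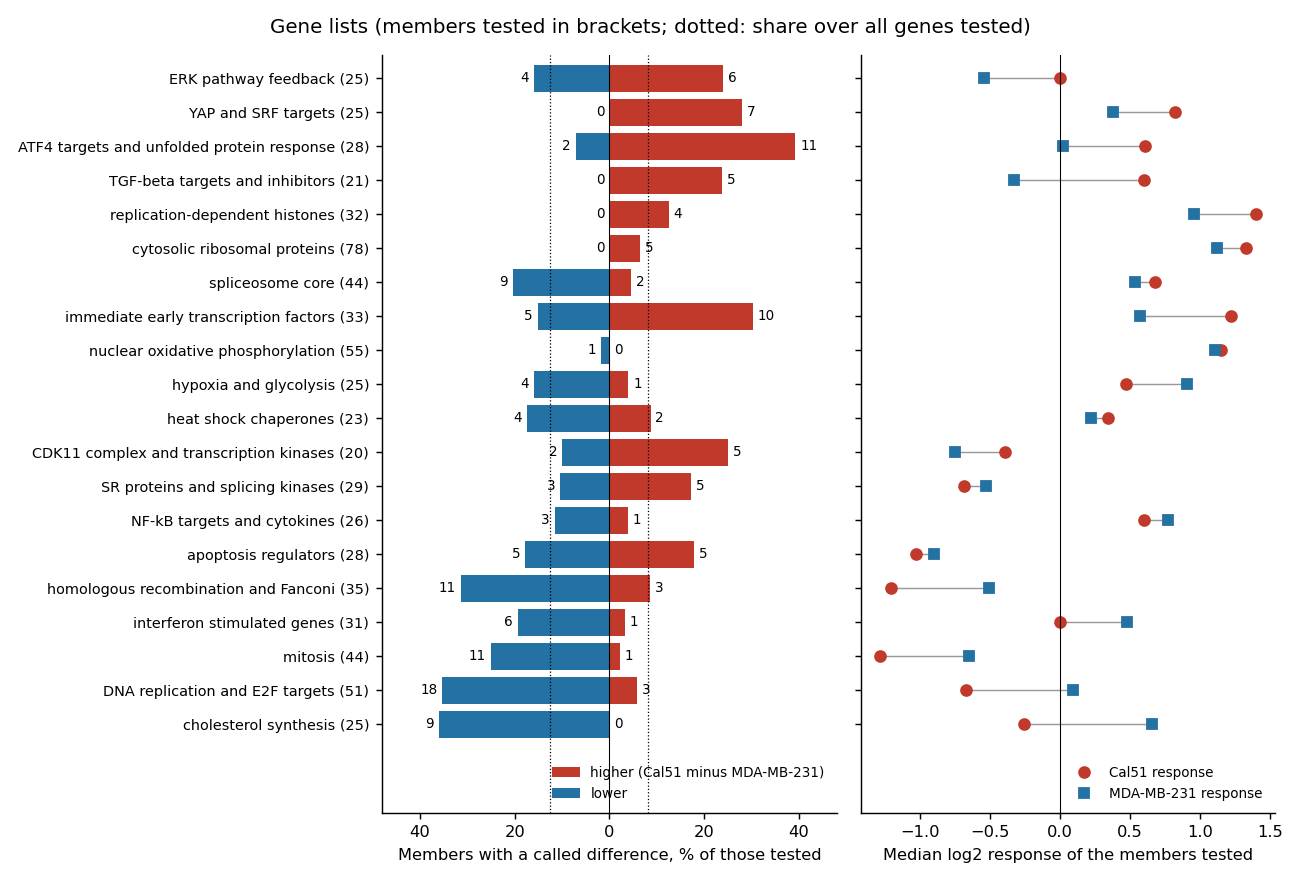
Left, share of each gene list shown with a called difference of responses, higher to the right and lower to the left of 0, with the number of genes at the bar ends and dotted lines at the shares over all genes tested; right, median log2 response of the list in Cal51 (circles) and MDA-MB-231 (squares). Cholesterol synthesis has 9 lower and 0 higher of 25, and the ATF4 and unfolded protein response list 11 higher and 2 lower of 28.

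Markers of the lines themselves were also read. Of 24 luminal and epithelial markers 2 were higher, CLDN4 and XBP1, and 1 was lower, KRT19 (12.5% called against 20.8% of all genes). The counts were 4 and 0 without MDA-MB-231 OTS964 library 1, and 3 and 2 without library 2. CLDN4, a tight junction claudin, had 4.97 and 4.06 against 6.69 and 5.19 CPM in Cal51 and fell from 78.4 and 76.9 to 45.6 and 37.8 in MDA-MB-231 (1.29 ± 0.25). KRT19, a keratin, went the other way and rose in MDA-MB-231 (-0.87 ± 0.26, adjusted p = 0.023), with its call lost in 5 of 8 omissions (adjusted p up to 0.12, without MDA-MB-231 OTS964 library 1). Among 26 basal and mesenchymal markers 3 were higher and 0 lower (11.5% called against 20.8% of all genes), with 0 to 6 higher over the 8 omissions (0 without Cal51 DMSO library 1 or Cal51 OTS964 library 1, 1 and 6 without MDA-MB-231 OTS964 library 1 and 2). ZEB1, a repressor that drives the mesenchymal state, fell in MDA-MB-231 from 56.5 and 50.0 to 9.91 and 14.3 CPM and had 40.8 and 38.0 against 32.0 and 28.8 CPM in Cal51. Its difference of 1.77 ± 0.56 (adjusted p = 0.029) was lost in 7 of 8 omissions (adjusted p up to 0.11).

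In cells labelled G579S the same difference was called in 27 of 14318 genes (0.189%), 11 higher (0.0768%) and 16 lower (0.112%). The count of called genes rested on single libraries: it was 2308 without Cal51 G579S DMSO library 1, 6 without MDA-MB-231 G579S OTS964 library 1, and between 7 and 14 without any other of the 8 G579S libraries. DESeq2 called 829, and 2327 genes had an unadjusted p under 0.05. Over genes at 5 CPM or more in each line, the median absolute log2 difference was 0.49 for wild-type and 0.33 for G579S cells. The test of wild-type minus G579S called 2405 genes (16.8%), 1123 higher (7.84%) and 1282 lower (8.95%). Of the 27 genes 11 were also called in wild-type cells, and 5 of these had the same direction in both genotypes.

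Values in both genotypes follow for some of the genes described. Most were chosen for a called wild-type difference. The test of wild-type minus G579S uses the same wild-type libraries, so its p-values for them are no independent support. FOXC1 had a log2 difference of 4.29 in wild-type and 0.73 in G579S cells (adjusted p of the latter 0.11, and of wild-type minus G579S 8.3e-07). PRC1 had -1.86 and -0.15 (wild-type minus G579S, adjusted p = 9.7e-07), CCN2 1.60 and -0.07 (3.1e-05), EXOSC6 2.27 and 0.07 (1.5e-05), CCNL1 2.71 and -0.24 (0.0077), and MVD -1.55 and 0.01 (0.013). For CSF1, THBS1 and CCNL2 the genotypes did not differ past the test (adjusted p = 0.37, 0.47 and 0.66). BNIP3, a mitophagy receptor, was lower in both genotypes, by -0.49 ± 0.16 and -0.90 (adjusted p = 0.024), and its wild-type call was lost in 6 of 8 omissions (adjusted p up to 0.15).

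**Figure D5:**
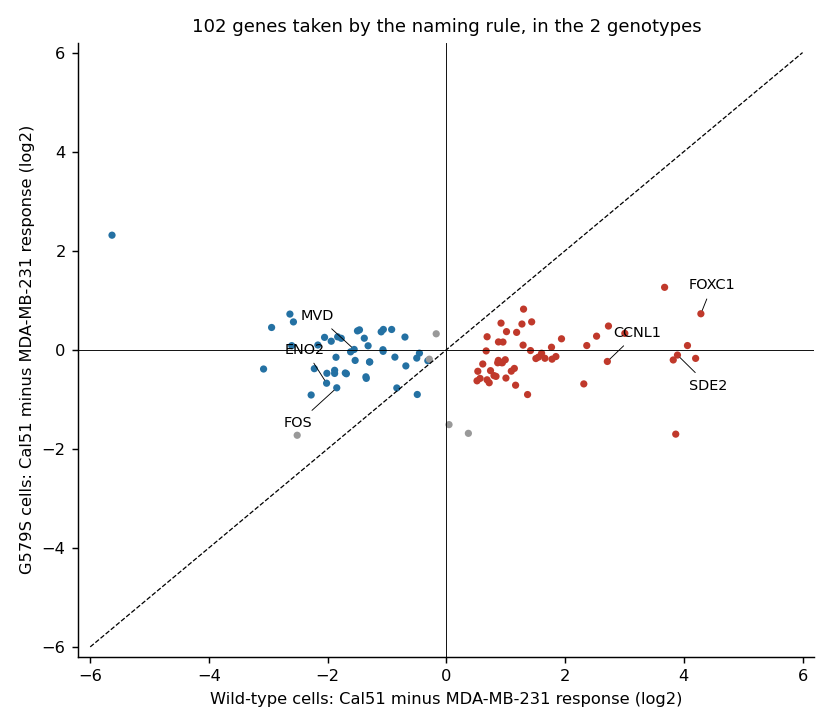
Difference of responses, Cal51 minus MDA-MB-231, in wild-type (horizontal) and G579S cells (vertical), for the 102 genes taken by the naming rule that were not at 0 in any wild-type group; the dashed line marks equal differences. Most genes were chosen for their wild-type difference, of which 70 reach 1 in size, against 6 in G579S cells.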

How the data were processed

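RNA-seq libraries of 4 wild-type groups were compared, 2 libraries each; RNA was extracted with a column kit and libraries were made with a SMARTER mRNA-Seq kit, per the labels' protocols. The deposited tables give, per the file headers, the estimated counts of reads and the TPM of each of 87398 human transcripts. Which software quantified the reads is not stated in the labels and headers used here. GRCm38 and mm10, both mouse builds, are the builds named per the submitters' processing notes, although the transcript identifiers are human, so no gene coordinates of the tables' build are printed. Of the identifiers 42587 (48.73%) matched a RefSeq gene, with 85.62% to 89.37% of the reads (36272 of 36585 curated and 6315 of 31064 predicted identifiers matched); the rest were not used.

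Estimated counts were summed per gene and rounded to whole numbers. All 16 groups of the series (32 libraries, 4 lines) were fitted together with edgeR 4.0.16 (R 4.3.3), so that they share 1 estimate of the spread: TMM scaling, filterByExpr by group (14318 of 18854 genes), the quasi-likelihood test and Benjamini-Hochberg adjustment over all genes tested, with a threshold of 0.05. SE is the log2 value divided by the square root of F. CPM is TMM-scaled. On simulated counts with known changes in the wild-type difference, the test recovered 34% of 2-fold and 88% of 4-fold changes and called 7 unchanged genes (0.0496%). Only 200 genes were changed there, against 2973 called in the data, and all libraries shared 1 dispersion per gene. The wider spread of the MDA-MB-231 OTS964 libraries was not simulated, so these rates need not hold for the data.

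Named genes had to pass the test, reach 5 CPM in each line and keep the single-library responses of the lines apart. From these were taken the 6 largest differences in each class and among opposite directions, up to 4 genes per list by adjusted p, and 12 genes named whatever their values. Other genes printed with values were chosen after values were seen. Members and lists were chosen with earlier results of these data known. Alternatives were median-ratio size factors, library totals, other filters, DESeq2 1.42.0, a replicate block, length-scaled TPM of the deposited tables, a fit of the 8 libraries and leaving out each library. Some genes and 1 gene list are not reported here.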

Additional observations from a re-analysis of the deposited data

Results flagged for a closer look

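The difference of responses between the lines was itself tested, and it was called in 2973 genes in wild-type cells. Its change with genotype was called in 2405 genes. Among genes that passed in both lines in opposite directions, the largest log2 differences were those of FOXC1 (4.29), ZNF296 (4.20), ZNF136 (4.06), SDE2 (3.89), EREG (3.86) and PWWP2A (3.82), each with a rise in Cal51 and a fall in MDA-MB-231. Groups of 2 libraries are too small for a check of outlying samples.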

How the results depend on the processing

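With library totals, 778 genes were higher in the wild-type difference, 1640 rose and 6025 fell in Cal51, 1662 rose and 4861 fell in MDA-MB-231, 17 were higher and 7 lower in G579S cells, 555 were higher in wild-type minus G579S, and 202 had opposite directions. With DESeq2, 1933 were higher in the wild-type difference, 829 were called in G579S cells (271 higher, 558 lower) and 1910 were higher in wild-type minus G579S. The fit of the 8 libraries called 1849 genes, 752 lower. In G579S cells 9 were lower with no filter, 65 were called with a CPM filter (17 higher, 48 lower), and 90 with length-scaled TPM (21 higher, 69 lower). With the replicate block 2541 genes were called in wild-type and 2 in G579S cells (2 higher, 0 lower). To look for pairing by library number, the deviations between replicate libraries were correlated, across genes, between the DMSO and the treated group. The correlation was 0.04 in Cal51 and -0.01 in MDA-MB-231 wild-type cells, and 0.15 and 0.02 in the G579S cells of these lines. These values gave little sign of pairing by number, but they cannot show that the libraries were unpaired.

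Leaving out 1 library gave 2237 to 3982 called genes in the wild-type difference (814 to 1974 higher, 1389 to 2008 lower), 6582 to 6695 in Cal51 (3115 to 3210, 3372 to 3542), 5622 to 7074 in MDA-MB-231 (2907 to 3369, 2648 to 3705), 6 to 2308 in G579S cells (3 to 894, 3 to 1414), 1802 to 3472 in wild-type minus G579S (790 to 1775, 1012 to 1788) and 239 to 520 opposite directions. The causes were not tested. Of the named genes 111 were called. Calls lost under settings other than omissions are given above for some genes only. The naming rule kept the single-library responses of the lines apart, so leaving out 1 library could hardly reverse a gene taken by it. Of 116 named genes 0 reversed under any of 16 settings, and 36 lost the call under at least 1. With 2 libraries a group, changes of 2-fold were mostly missed on simulated counts in which 200 genes changed, and the share missed in these data may differ.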
